A study of Mus musculus with 40 samples.

Results

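CD11b+ cells from U87-MG gliomas of nude mice that received the 7aaRAE peptide were compared with the same cells from mice that received the vehicle alone, 3 samples against 3, out of 40 samples in the series. The members are the deposited columns whose names carry RAE and solvent in the U87-MG table. U87-MG is a human glioblastoma line, here carrying a red fluorescent protein and implanted in the right striatum of male athymic nude mice (Foxn1nu, which lack a functional thymus). Osmotic pumps delivered water (vehicle), 7aaRAE or 7aaRGD at 2 mg/ml into the tumor for 21 days, CD11b+ cells were sorted by FACS, and each sample pooled 2 animals. 7aaRGD carries the RGD motif (arginine-glycine-aspartic acid) that αv integrins bind, and in 7aaRAE this motif is replaced by arginine-alanine-glutamic acid. The comparison therefore asks what a peptide without the motif leaves in the transcriptome, against water delivered in the same way. All 3 groups bore tumors. Naive nude mice were not analysed here. The labels give the tumor line as the cell type, while the sorted cells are murine.

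CD11b, the product of Itgam, marks the myeloid cells of the brain, namely microglia, border-associated macrophages and the monocytes and macrophages that enter a tumor, and it is also found on mature NK cells. Myeloid cells present antigen on MHC class II, a surface complex whose genes are switched on by the coactivator Ciita. Cytokine receptors, stress hormones and interferons set much of the remaining transcriptional state of these cells. Fkbp5, Per1, Tsc22d3 and Zbtb16 are textbook targets of the glucocorticoid receptor.

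Myeloid transcripts were abundant in every sample, with Csf1r between 2022 and 2707 RPKM (reads per kilobase of exon, scaled to the size of the library) and Itgam between 126 and 195 RPKM. T-cell transcripts were near 0, as none of the 10 T-cell markers reached the level for testing, and Cd3e and Cd8a stayed under 0.02 RPKM in all 9 samples. Samples are numbered by the place of their column among columns of the same name, since the names carry no number. 7aaRAE sample 2 and 7aaRGD sample 2 stood apart from the rest. Their scores on the first principal component, which held 49.9% of the variance, were 27.5 and 22.8, against -15.5 to 1.81 in the other samples. Mitochondrially encoded transcripts made up 4.18% of the signal in 7aaRAE sample 2, 3.12% in 7aaRGD sample 2, 3.01% in 7aaRAE sample 3 and 2.12% to 2.57% in the others, and the part of this in the results was not tested. The third columns of the 3 groups were also set apart in the deposited values. Among the 26578 rows that vary, 5659 to 6118 held an identical value in any pair of these columns and none held an identical value in one of these and in any other column. Several results were therefore also computed without the 2 samples numbered 2. Of the 9665 genes then tested, 56.5% were lower under 7aaRAE, 3.22% were higher and 4.77% lower at an unadjusted p under 0.05, and 9.57% were higher and 15.1% lower without overlap.

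A single gene passed the threshold of an adjusted p under 0.05. Il15ra rose under 7aaRAE, and no gene fell, so that 1 of 9668 protein-coding genes tested was called (0.0103%). The test was limma on log2(RPKM + 1) across the 9 samples of the 3 groups, with p-values adjusted by the Benjamini-Hochberg method over all genes tested. At an unadjusted p under 0.05 there were 746 genes (7.72%), of which 331 (3.42%) were higher and 415 (4.29%) lower under 7aaRAE. The 3 samples of 7aaRAE did not overlap with the 3 of vehicle for 1591 genes (16.5%), 677 (7.00%) higher and 914 (9.45%) lower. The number of calls depended on which samples shared the estimate of the spread, and with the 7aaRGD samples left out of the fit 32 genes passed, 15 higher and 17 lower. Il15ra was among those 32 genes.

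Il15ra encodes the alpha chain of the interleukin-15 receptor, which binds the cytokine and presents it in trans to NK and memory T cells. The gene (ENSMUSG00000023206.16) lies on the plus strand at chr2:11705290-11734317 of mm10. Its level was 1.93, 1.63 and 1.77 RPKM in the vehicle samples and 5.50, 6.50 and 5.89 RPKM in the 7aaRAE samples. The 7aaRGD samples had 2.68, 3.41 and 2.66 RPKM and lay between the groups without overlapping either. The difference between 7aaRAE and vehicle was 1.32 ± 0.102 on the log2(RPKM + 1) scale (SE), with a 95% interval of 1.09 to 1.55 and an adjusted p of 0.00332 by limma. It was 1.33 within the first and second columns and 1.31 within the third, and 1.27 without the samples numbered 2. The log2 difference between 7aaRGD and vehicle was 0.49 and did not pass (adjusted p = 0.941). In GL261 gliomas of C57BL/6 mice at day 21, whose table was normalized separately, Il15ra stood at 6.88 ± 1.12 RPKM in vehicle samples, 8.24 ± 0.505 RPKM in 7aaRAE samples and 1.05 ± 0.161 RPKM in naive mice (SD, n = 3 each). The GL261 groups did not overlap, as for 12.6% of genes there, and the log2 difference of 0.24 had an adjusted p of 0.718 by limma. No gene passed in GL261 gliomas (0 of 9444), and 601 (6.36%) had an unadjusted p under 0.05.

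The stretches around a repeat that interferon regulatory factors bind are shown for Il15ra because it is the gene that was called, with the repeat (GAAANNGAA on either strand, a pattern looked for after the sequence had been seen) in capitals. Each of the 2 RefSeq promoter windows of the gene (GRCm38.p6, the assembly of mm10, 250 bases before to 50 after a start) held a match, as did 8.56% of all 32851 windows. The first lies upstream of its start site at chr2:11705132-11705159, and the second just downstream of the other start site at chr2:11705730-11705757, both on the plus strand.
Il15ra, upstream start: cttcaccccttcTTCCATTTCaaacact
Il15ra, downstream start: taaagcaaaagcGAAAGCGAAtactcct

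Below the threshold, the genes with the largest positive differences included a set known as glucocorticoid targets. By a fixed rule (unadjusted p under 0.05, groups not overlapping, mean of at least 5 RPKM, 10 per direction), these included Ddit4, Fkbp5, Adamtsl4, Cd300lf, Jdp2, Galnt6, Klf4, Mt2 and Per1. None passed the adjusted threshold, with adjusted p-values between 0.0627 and 0.536, so they are given as values. Ddit4, an inhibitor of mTORC1 signalling, had 16.6, 8.89 and 9.83 RPKM in vehicle samples and 43.3, 180 and 69.5 RPKM under 7aaRAE. The middle value of the 7aaRAE columns was far above the others, and without the samples numbered 2 the log2 difference went from 2.74 to 2.18. Fkbp5, a co-chaperone of the glucocorticoid receptor, had 10.4, 8.80 and 10.3 RPKM against 35.2, 61.8 and 35.4 RPKM, a log2 difference of 2.01 ± 0.259 (adjusted p = 0.0627 by limma). Fkbp5 passed without the samples numbered 2 (log2 difference 1.75, adjusted p = 0.00126) and with the 7aaRGD samples left out of the fit (adjusted p = 0.0241).

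The receptor Cd300lf, an inhibitory immunoglobulin-like receptor of myeloid cells, had 5.56, 4.65 and 6.43 RPKM in vehicle samples and 15.6, 23.9 and 13.5 RPKM under 7aaRAE. Mt2, a metallothionein that binds zinc and copper, had 6.44, 7.16 and 8.01 RPKM against 18.9, 23.1 and 17.9 RPKM. The groups were well apart for both genes. Jdp2, a repressor of the AP-1 family, had 3.82, 4.86 and 5.80 RPKM against 11.1, 18.9 and 14.0 RPKM. Adamtsl4, Galnt6 and Klf4 were highest in 7aaRAE sample 2, at 22.1, 28.6 and 63.6 RPKM. Their means were 3.04, 5.41 and 15.1 RPKM in vehicle samples and 13.7, 17.4 and 41.6 RPKM under 7aaRAE.

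**Figure D1:**
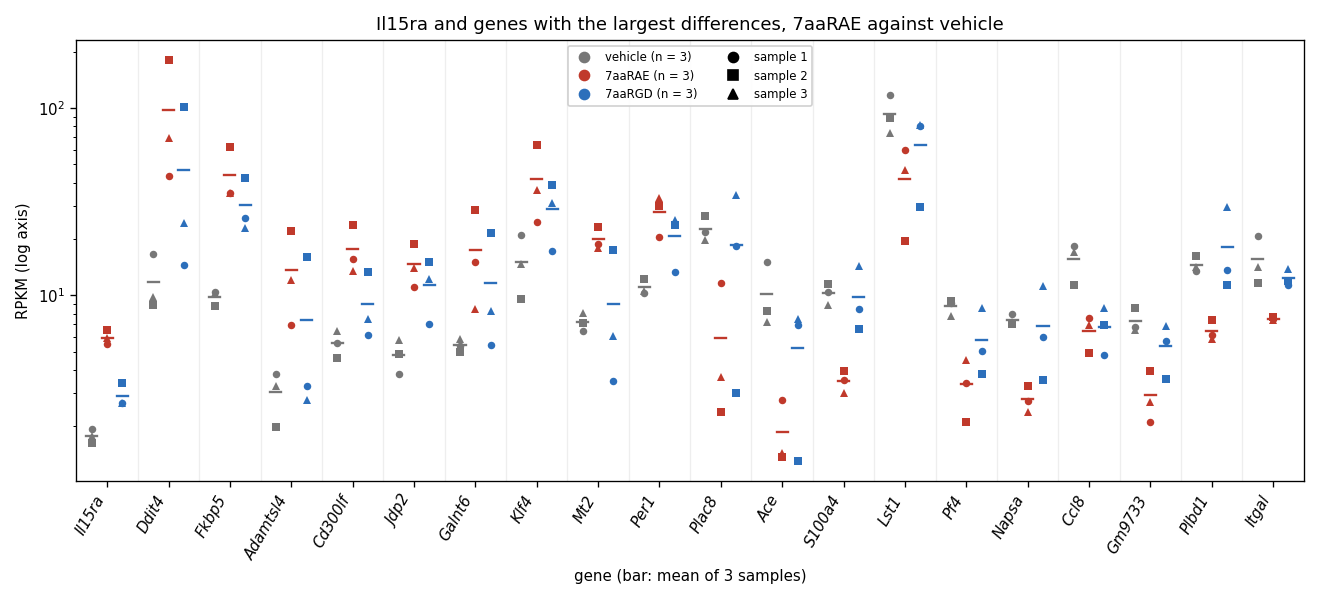
RPKM on a log axis for Il15ra and genes with the largest differences, each point a sample of 2 animals, coloured by group and shaped by column place, with a bar at the mean of 3 samples. Il15ra is the gene past the threshold, with 5.50 to 6.50 RPKM under 7aaRAE and 1.63 to 1.93 RPKM under vehicle; for Ddit4, Adamtsl4 and Galnt6 the samples numbered 2 are the highest of their peptide group.

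The list of glucocorticoid-responsive genes had 13 members, of which 11 reached the mean of 1 RPKM asked for in testing. None passed the adjusted threshold. Zbtb16 and Klf9 were under 1 RPKM in all vehicle samples and reached that mean through the peptide groups, so the list is described over all 13 members in a fit with no filter. The median log2 difference was 1.18, against -0.001 over the 16625 genes of that fit, 12 of 13 members were higher under 7aaRAE, 8 of 13 were higher at an unadjusted p under 0.05 and 9 of 13 were higher without overlap. Of all genes in that fit, 46.0% were higher by value, 2.89% at that p and 5.43% without overlap. Dusp1, a phosphatase of the MAP kinases, and Sgk1, a serum- and glucocorticoid-regulated kinase, had the highest levels of the list. Dusp1 stood at 187, 102 and 116 RPKM in vehicle samples and at 172, 385 and 227 RPKM under 7aaRAE, with overlapping groups. Sgk1 stood at 124, 190 and 108 RPKM against 126, 98.2 and 114 RPKM, and was the member that was lower by its mean.

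The other members of this list were chosen for description after their values had been seen. Per1, a clock gene that glucocorticoids also induce, had 10.3, 12.3 and 10.5 RPKM in vehicle samples and 20.6, 30.1 and 33.1 RPKM under 7aaRAE. Tsc22d3, the leucine zipper protein GILZ, had 30.5, 21.4 and 22.1 RPKM against 34.9, 96.7 and 52.9 RPKM. Both genes were higher in every 7aaRAE sample than in any vehicle sample. Zbtb16, a zinc finger repressor, had 0.0857, 0.0595 and 0.181 RPKM against 1.69, 3.58 and 1.78 RPKM. Sult1a1, a sulfotransferase, had 29.1, 14.9 and 19.3 RPKM against 46.3, 50.8 and 50.1 RPKM. Cdkn1a and Errfi1 differed by 0.14 and 0.13 on the log2 scale, less than their standard errors of 0.203 and 0.179.

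The 7aaRAE samples differed among themselves in this list. The median over the list, relative to the vehicle mean of each gene, over all 13 members, was 0.42, 1.37 and 0.96 in the 3 samples of 7aaRAE and 0.10, 0.85 and 0.50 in those of 7aaRGD. In both peptide groups the sample numbered 2 was the highest and the sample numbered 1 the lowest. Without the samples numbered 2, 9 members were tested and Fkbp5 passed. In GL261 gliomas the median of the list under 7aaRAE was -0.28, and 1 member was higher and 1 lower at an unadjusted p under 0.05, as were 3.31% and 3.05% of the 9444 genes tested there. A canonical glucocorticoid response element (read on either strand) was found in the windows of 1 of 12 list genes, Sgk1, and in 0.475% of all windows, and windows of this length do not cover distal elements.

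**Figure D2:**
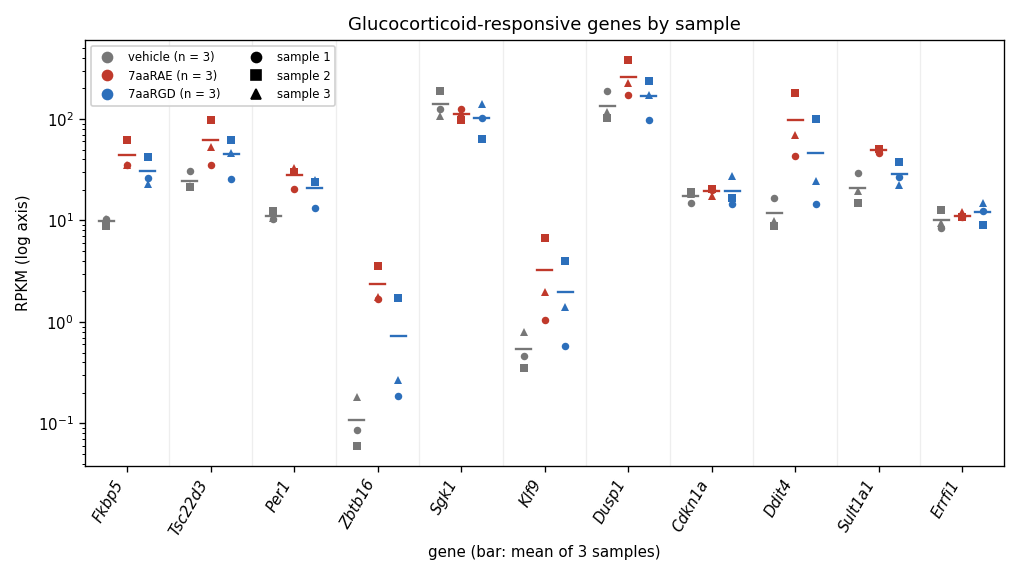
RPKM on a log axis for the 11 tested glucocorticoid-responsive genes, each point a sample, with a bar at the mean of 3 samples. Fkbp5, Per1, Sult1a1 and Zbtb16 lie higher in all 7aaRAE samples than in all vehicle samples, while Sgk1, Cdkn1a and Errfi1 overlap; 7aaRAE sample 2 is the highest sample for Ddit4 (180 RPKM), Klf9 (6.68 RPKM) and Dusp1 (385 RPKM).

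Immediate early genes and Kruppel-like factors, transcription factors and feedback regulators that respond within minutes to many stimuli, were mostly higher. Of 26 immediate early genes, 23 were tested, 22 were higher by value, 7 had an unadjusted p under 0.05, none passed the adjusted threshold, and the median log2 difference was 0.43. Of all genes 49.1% were higher by value, and 3.42% were higher at an unadjusted p under 0.05. Without the samples numbered 2, 4 of 23 were higher and 1 lower at that p, with a median of 0.33. In that fit 3.22% of all genes were higher and 4.77% lower at that p. The most abundant members overlapped between groups, with Fos at 657, 532 and 433 RPKM in vehicle samples and 611, 825 and 771 RPKM under 7aaRAE, and Junb at 535, 550 and 422 RPKM against 518, 555 and 715 RPKM. Ier3, an inhibitor of apoptosis chosen here for the lowest p of the list, had 30.7, 45.0 and 45.9 RPKM against 62.5, 95.6 and 102 RPKM (adjusted p = 0.306 by limma). All 10 Kruppel-like factors were tested, 8 were higher and 4 of these had an unadjusted p under 0.05, with a median of 0.49, and without the samples numbered 2 the median was 0.31 with 2 of 9 higher at that p. Klf2 and Klf6, the most abundant, had log2 differences of 0.31 and 0.67. Of 14 clock genes tested of 18, 4 were higher at an unadjusted p under 0.05, namely Per1, Cry2, Nfil3 and Per2, and the median was 0.18, or 0.07 without the samples numbered 2. Bhlhe41 and Nfil3, the most abundant, differed by -0.02 and 0.76. These lists share members, so their counts are not independent. Klf2, Klf4 and Klf6 were among the genes counted both as immediate early genes and as Kruppel-like factors. Dusp1, Klf9 and Per1 are also members of the glucocorticoid list. The median of the immediate early genes over all 26 members was 0.08, 0.56 and 0.52 in the 7aaRAE samples, so that sample 1 was within the vehicle samples, which stood between -0.03 and 0.12.

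MHC class II genes were lower under 7aaRAE, though none passed the adjusted threshold. All 10 members were tested and were lower by their means, 8 of 10 did not overlap with vehicle, 6 of 10 had an unadjusted p under 0.05, and the median log2 difference was -0.59. Of all genes 50.9% were lower by value, 9.45% without overlap and 4.29% at an unadjusted p under 0.05. Ciita, near 1 RPKM under 7aaRAE, met the level for testing through the other groups. In a fit with no filter, 5 of 10 members were lower at that p, as were 781 of 16625 genes. The summed level of the list was 764, 863 and 767 RPKM in vehicle samples and 439, 476 and 495 RPKM under 7aaRAE. The 7aaRGD samples had 580, 591 and 1173 RPKM, so that 2 samples lay between the other groups and 1 above the vehicle samples. In contrast to the glucocorticoid list, the 3 samples of 7aaRAE were alike here, with list medians of -0.66, -0.56 and -0.53. Without the samples numbered 2 the median was -0.54 with 9 of 10 members lower, where 56.5% of all genes were. These genes lie together in the major histocompatibility complex on chromosome 17, except Cd74 and Ciita. Stretches upstream of 4 of them are shown because 2 of them encode classical class II chains and 2 encode subunits of the peptide exchange factors described after them, with the core of the Y box (TGATTGG) and part of the X box, elements that the Ciita-dependent assembly binds, in capitals where found.
H2-Aa, chr17:34287855-34287917, minus strand: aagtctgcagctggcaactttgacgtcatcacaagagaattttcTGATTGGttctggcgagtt
H2-Eb1, chr17:34305762-34305824, plus strand: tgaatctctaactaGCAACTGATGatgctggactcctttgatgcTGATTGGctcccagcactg
H2-DMb1, chr17:34153084-34153146, plus strand: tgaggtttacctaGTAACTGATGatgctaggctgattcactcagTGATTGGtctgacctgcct
H2-Ob, chr17:34238802-34238864, plus strand: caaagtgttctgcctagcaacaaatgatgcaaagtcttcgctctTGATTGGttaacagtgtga

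Windows were at hand for 7 of the 10 genes. The Y box core was in 6 of these 7 and in 7.82% of all windows on either strand, and the X box letters were in 2 of 7 and in 0.782% of all windows. The sequences are of GRCm38.p6 (RefSeq), and a match is a description of the letters alone.

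The classical class II chains, the invariant chain and Ciita were lower in every 7aaRAE sample than in any vehicle sample. Cd74, the invariant chain, had 396, 433 and 394 RPKM in vehicle samples and 200, 228 and 227 RPKM under 7aaRAE, the lowest p of the list (log2 difference -0.90 ± 0.249, adjusted p = 0.411 by limma). H2-Eb1, a beta chain, had 112, 133 and 124 RPKM against 58.8, 78.1 and 76.7 RPKM. Both genes were at about the same level in all 3 vehicle samples. The remaining members were chosen for description after their values had been seen. H2-Ab1 had 70.1, 89.0 and 72.1 RPKM against 44.1, 45.4 and 44.6 RPKM. H2-Aa, its alpha chain partner, had 57.6, 72.4 and 62.6 RPKM against 32.0, 44.8 and 38.7 RPKM. Ciita itself had 1.93, 2.19 and 1.79 RPKM against 0.837, 1.02 and 0.952 RPKM. With the 7aaRGD samples left out of the fit, Cd74 and H2-Ab1 were among the 32 genes that passed.

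Of the 10 class II genes, 6 were higher and 4 lower by value under 7aaRGD than under 7aaRAE, with a median log2 difference of 0.519. At an unadjusted p under 0.05, 5 were higher and 3 lower, as were 173 and 154 of all 9668 genes. In 2 genes of the peptide exchange factors, values were lower under 7aaRGD than under 7aaRAE. The other genes of these factors are not described here for 7aaRGD. H2-DMb1, which loads peptide onto class II, had 34.5, 40.4 and 32.4 RPKM in vehicle samples, 22.6, 23.7 and 30.4 RPKM under 7aaRAE and 11.5, 16.5 and 11.5 RPKM under 7aaRGD. H2-Ob, a subunit of the inhibitor of that step, had 21.0, 19.4 and 16.9 RPKM, 15.7, 15.3 and 15.4 RPKM, and 2.65, 10.4 and 2.61 RPKM in the same order. For both genes every 7aaRGD sample was under every 7aaRAE sample. H2-DMb1 and H2-DMb2 are near-identical neighbours whose reads may have been split by the counting, so their single values are uncertain. With all samples, neither gene passed between 7aaRGD and 7aaRAE. The difference in H2-Ob passed without the samples numbered 2 (log2 difference -2.19 ± 0.105, adjusted p = 0.000486 by limma, with 2 samples in each peptide group). That fit leaves out the highest 7aaRGD value of H2-Ob, 10.4 RPKM. In GL261 gliomas the class II list had a median of -0.07 under 7aaRAE, with no member at an unadjusted p under 0.05.

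**Figure D3:**
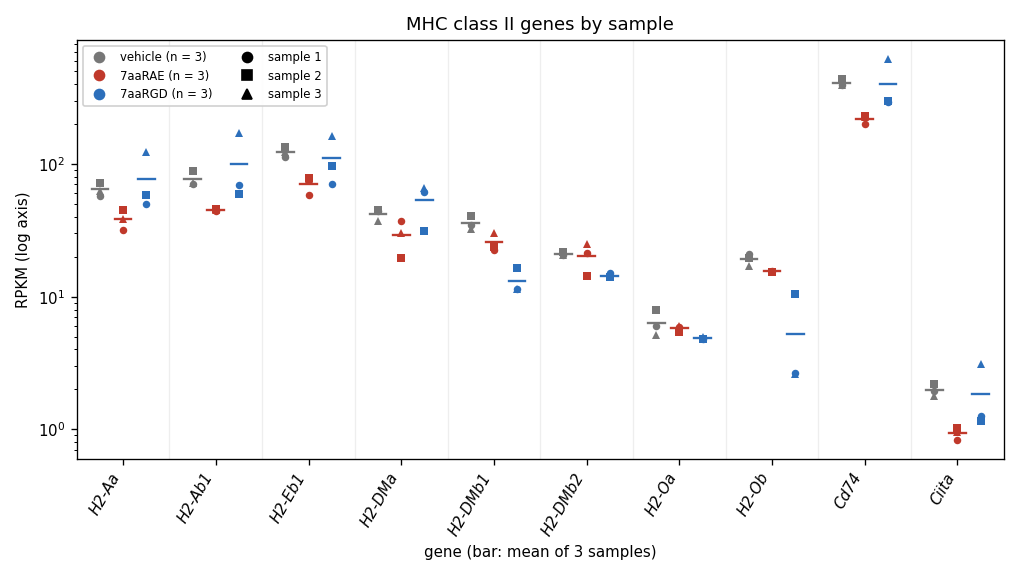
RPKM on a log axis for the 10 MHC class II genes, each point a sample, with a bar at the mean of 3 samples. Cd74, H2-Ab1, H2-Aa, H2-Eb1 and Ciita lie lower in all 7aaRAE samples than in all vehicle samples, and H2-DMb1 and H2-Ob are lowest under 7aaRGD.

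MHC class I genes followed a different pattern across the samples. All 16 members were lower by their means, with a median log2 difference of -0.34, and 6 of 16 had an unadjusted p under 0.05, where 50.9% and 4.29% of all genes were lower by these criteria. B2m, the light chain, had 1626, 1747 and 1637 RPKM in vehicle samples and 1780, 1117 and 1447 RPKM under 7aaRAE, so that the groups overlapped. H2-D1, a heavy chain, had 400, 249 and 236 RPKM against 228, 128 and 189 RPKM. Of the vehicle and 7aaRAE samples, the lowest in both genes was 7aaRAE sample 2. Without the samples numbered 2, the median was -0.14 and 1 of 16 members was lower at an unadjusted p under 0.05, a share near the 4.77% of all genes. In that fit 12 of 16 members were lower by value and 6 of 16 without overlap, where 56.5% and 15.1% of all genes were. Type I interferon response genes had a median of -0.21, and none of 24 tested had an unadjusted p under 0.05. The direction of the median turned on 7aaRAE sample 2, and without the samples numbered 2 it was 0.18, with 17 of 24 members higher. The medians over all 25 members ran from 0.75 in 7aaRAE sample 1 to -0.996 in 7aaRAE sample 2, wider than in the vehicle samples (-0.38 to 0.18). Bst2, the most abundant, had 73.1, 85.7 and 83.9 RPKM against 99.4, 40.8 and 73.7 RPKM, and Ifit3 had 16.7, 32.9 and 26.1 RPKM against 66.8, 7.93 and 18.2 RPKM. In the same sample 1 of 7aaRAE the erythroid transcript Hbb-bs was at 92.2 RPKM, against 5.49 to 20.6 RPKM in all other samples.

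Among the genes with the largest negative differences were several of circulating monocytes. By the same rule these were Plac8, Ace, S100a4, Lst1, Pf4, Napsa, Ccl8, Gm9733, Plbd1 and Itgal, with adjusted p-values between 0.131 and 0.549, and none passed. S100a4, a calcium-binding protein of motile leukocytes, had 10.4, 11.5 and 8.91 RPKM in vehicle samples and 3.55, 3.94 and 3.00 RPKM under 7aaRAE, a log2 difference of -1.32 ± 0.224 (adjusted p = 0.131 by limma). Itgal, the alpha L integrin subunit of LFA-1, had 20.8, 11.6 and 14.2 RPKM against 7.46, 7.69 and 7.42 RPKM. The 7aaRAE samples lay close together in both genes. Ace, the angiotensin-converting enzyme, had 15.0, 8.23 and 7.19 RPKM against 2.75, 1.38 and 1.45 RPKM. Plac8 had 21.7, 26.7 and 19.8 RPKM against 11.6, 2.38 and 3.66 RPKM, and Lst1 had 117, 88.8 and 73.4 RPKM against 59.6, 19.5 and 46.7 RPKM. The values of these genes were lowest in 7aaRAE sample 2, and the log2 difference of Lst1 went from -1.24 to -0.78 without 7aaRAE sample 2. Ccl8, a chemokine for monocytes, had 18.4, 11.3 and 17.0 RPKM against 7.59, 4.91 and 6.92 RPKM. In GL261 gliomas Ccl8 had 598, 236 and 28 RPKM in vehicle samples and 8.91, 5.08 and 51 RPKM under 7aaRAE, with overlapping groups. The log2 difference there was -3.45 (adjusted p = 0.718 by limma). The aspartic protease Napsa, the phospholipase Plbd1, the platelet factor Pf4 and Gm9733 had log2 differences between -1.20 and -1.06.

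The marker lists of the cell types in a CD11b+ sort bear on these values. In bulk samples fewer cells of a type and less RNA per cell cannot be told apart. For monocyte-derived macrophages, 13 of 16 markers were lower, 5 of 16 had an unadjusted p under 0.05, where 50.9% and 4.29% of all genes were lower by these criteria, and the median log2 difference was -0.525. Its most abundant markers overlapped between groups, with Fn1 at 187, 238 and 276 RPKM against 208, 475 and 359 RPKM, and Tgfbi at 123, 138 and 176 RPKM against 73.4, 153 and 112 RPKM. Ly6c2, the defining marker of inflammatory monocytes, had 1.51, 2.47 and 1.74 RPKM in vehicle samples and 0.122, 0.184 and 0.265 RPKM under 7aaRAE. It reached the level for testing through the groups in which it was higher. In a fit with no filter, 5 of 16 markers were lower at an unadjusted p under 0.05, as were 781 of 16625 genes. Ccr2 had 18.2, 18.9 and 22.5 RPKM against 11.4, 24.4 and 12.6 RPKM, with overlapping groups. Without the samples numbered 2, 15 of 16 markers were lower and 8 of 16 had an unadjusted p under 0.05. In that fit 56.5% and 4.77% of all genes were lower by these criteria. The summed level of the list, which Fn1 and Tgfbi dominate, was 566 to 762 RPKM in vehicle samples and 549 to 809 RPKM under 7aaRAE.

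NK cell transcripts were low in the vehicle samples and close to 0 under 7aaRAE. The summed level of the 12 markers was 15.3, 9.55 and 27.1 RPKM in vehicle samples, 2.84, 1.13 and 0.579 RPKM under 7aaRAE and 9.42, 2.00 and 8.10 RPKM under 7aaRGD. The defining receptor Ncr1 had 0.924, 0.654 and 1.80 RPKM against 0.0754, 0.178 and 0 RPKM, under the level for testing. Gzma, Gzmb and Prf1, which encode cytotoxic granule proteins, reached that level, but through the groups in which they were high, so their tests are not given. Gzma had 5.50, 4.07 and 11.6 RPKM against 1.13, 0.240 and 0.104 RPKM, and Gzmb had 2.68, 1.25 and 4.06 RPKM against 0.309, 0.265 and 0.0870 RPKM. Both were lower in every 7aaRAE sample. Il15ra, the receptor chain that presents interleukin-15 to these cells, was highest in the group in which NK transcripts were lowest, and the relation between them was not tested.

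All 15 homeostatic microglia markers were lower by value, with a median log2 difference of -0.35, 1 of 15 had an unadjusted p under 0.05 and 3 of 15 did not overlap, where 50.9%, 4.29% and 9.45% of all genes were lower by these criteria. Csf1r, the receptor on which microglial survival depends, had 2628, 2707 and 2247 RPKM in vehicle samples and 2527, 2022 and 2310 RPKM under 7aaRAE, with overlapping groups. The list medians in the 7aaRAE samples were -0.03, -0.63 and -0.29, and without the samples numbered 2 the median was -0.18. Border-associated macrophage markers had a median of -0.35. Of 10 tested, 9 were lower by value, 5 without overlap and 2, Pf4 and Folr2, at an unadjusted p under 0.05. Over all genes these shares were 50.9%, 9.45% and 4.29%. Mrc1 had 31.4, 32.3 and 34.9 RPKM against 16.6, 31.4 and 31.9 RPKM, and F13a1 had 29.9, 20.1 and 33.9 RPKM against 22.5, 34.2 and 21.0 RPKM. Neutrophil markers had a median of 0.18, with none of 11 at an unadjusted p under 0.05, and the median was -0.175 without the samples numbered 2. Csf3r had 227, 224 and 200 RPKM against 217, 125 and 170 RPKM. S100a9 had 36.2, 35.0 and 62.6 RPKM against 57.3, 51.5 and 14.6 RPKM, and Ly6g was under 1 RPKM in all samples. DNA replication and mitosis genes were lower for 33 of 34 members, 2 of them at an unadjusted p under 0.05, with a median of -0.35. Tubb5 had 149, 217 and 191 RPKM against 169, 111 and 174 RPKM, and Pcna had 32.3, 39.3 and 42.1 RPKM against 32.7, 28.1 and 36.7 RPKM. Much of the list's difference came with 7aaRAE sample 2, whose median over all 37 members was -0.91 against -0.12 and -0.05 in the other 7aaRAE samples, and without the samples numbered 2 the median was -0.07.

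Markers of dendritic cells and B cells, which also carry MHC class II, were lower beside the class II genes, and their part in that result was not tested. Of 13 dendritic cell markers 8 were tested, with a median log2 difference of -0.41. Of these, 6 of 8 were lower, and Irf8 and Batf3 were lower at an unadjusted p under 0.05. Over all genes, 50.9% were lower by value and 4.29% at that p. Irf8, a transcription factor that microglia also express, had 87.3, 88.5 and 80.0 RPKM in vehicle samples and 71.5, 66.1 and 71.3 RPKM under 7aaRAE. Batf3 had 7.36, 6.73 and 4.41 RPKM against 4.43, 3.07 and 3.09 RPKM. Fscn1 and Siglech, the most abundant markers and ones that microglia share, had 246, 236 and 196 RPKM against 209, 109 and 167 RPKM, and 236, 178 and 147 RPKM against 196, 139 and 178 RPKM. The summed level of the dendritic list was 494 to 722 RPKM in vehicle samples and 338 to 618 RPKM under 7aaRAE, and Zbtb46, its defining factor, was under 0.5 RPKM in all samples. The summed level of the 10 B-cell markers was 140 to 180 RPKM in vehicle samples, 71.4 to 113 RPKM under 7aaRAE and 98.3 to 167 RPKM under 7aaRGD. Most of this sum was Ighm, the heavy chain of IgM, with 157, 144 and 117 RPKM in vehicle samples and 94.4, 52.2 and 92.8 RPKM under 7aaRAE. Cd22 and Cd79b were the 2 tested markers, with log2 differences of -0.25 and -0.23. Ms4a1, a defining marker of B cells, was under 0.1 RPKM in all samples.

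**Figure D4:**
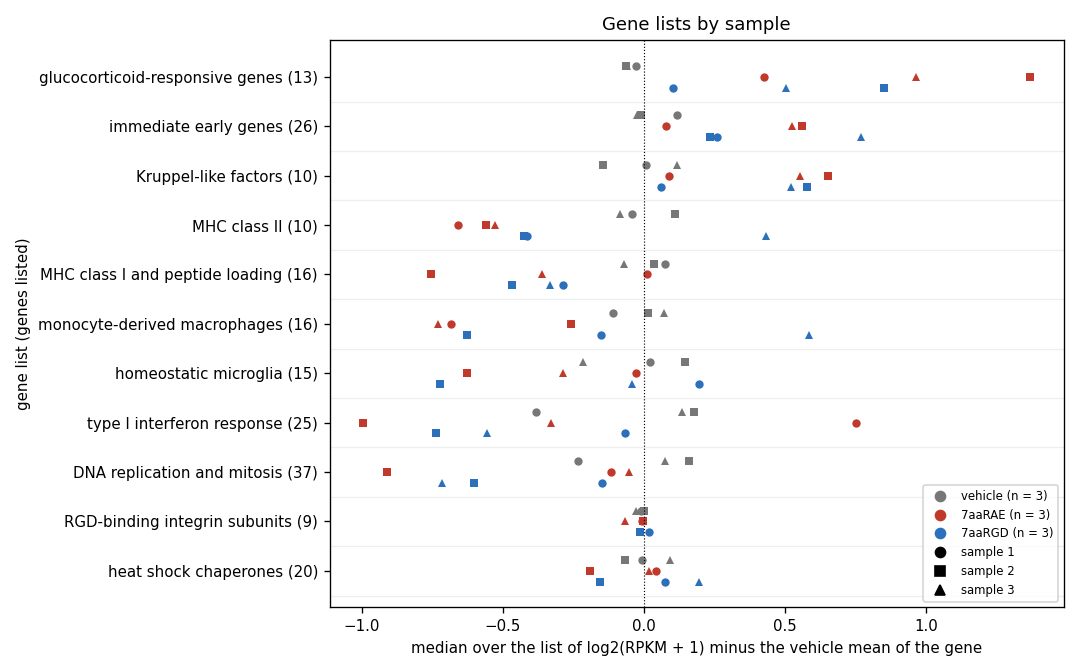
Median over each gene list of log2(RPKM + 1) minus the vehicle mean of the gene, 1 point per sample, coloured by group and shaped by column place, with the number of genes listed in brackets. The 3 samples of 7aaRAE lie together for MHC class II (-0.66 to -0.53) and apart for the type I interferon response (-0.996 to 0.75) and DNA replication (-0.91 to -0.05).

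Gene lists of the integrin system, the target of the parent peptide, had small median differences. The leukocyte subunit Itgal, described above, had a log2 difference of -0.92 (adjusted p = 0.187 by limma). Of 9 RGD-binding subunits, 5 were tested, the median log2 difference was -0.12 and none passed. Itgav, the αv subunit, had 16.5, 16.8 and 17.4 RPKM in vehicle samples and 15.4, 15.2 and 15.9 RPKM under 7aaRAE, a log2 difference of -0.12 with a 95% interval of -0.30 to 0.06. Its partners Itgb3 and Itgb5 had 17.4, 24.9 and 18.6 RPKM against 17.4, 14.5 and 17.7 RPKM, and 782, 789 and 688 RPKM against 754, 532 and 704 RPKM. Itgb1 had 109, 116 and 109 RPKM against 107, 119 and 120 RPKM. The groups of Itgb3, Itgb5 and Itgb1 overlapped. Itga5, the α5 subunit of the fibronectin receptor, had 15.2, 16.1 and 16.9 RPKM against 19.4, 22.8 and 18.5 RPKM, a log2 difference of 0.31 (adjusted p = 0.583 by limma). Itga8, Itga2b, Itgb6 and Itgb8 stayed under 0.4 RPKM. Spp1, the RGD-containing ligand osteopontin, had 1456, 1317 and 1831 RPKM against 1689, 1830 and 2101 RPKM, with overlapping groups and a log2 difference of 0.30 (adjusted p = 0.703 by limma). Of 22 focal adhesion and integrin signalling genes tested, 2 were lower at an unadjusted p under 0.05, where 4.29% of all genes were. Without overlap, 6 were lower and 1 higher, where 9.45% and 7.00% of all genes were. The median of that list was -0.03. Lyn, a Src-family kinase, had 195, 204 and 194 RPKM against 211, 183 and 191 RPKM, and Cdc42 had 171, 196 and 194 RPKM against 170, 208 and 187 RPKM.

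Of 10 CC chemokines tested, 3 were higher and 2 lower at an unadjusted p under 0.05. Over all genes these shares were 3.42% and 4.29%, here and for the NF-kB genes below. The median log2 difference of the CC chemokines was 0.01, or 0.385 without the samples numbered 2. Ccl12 had 307, 492 and 420 RPKM against 558, 226 and 476 RPKM. Ccl3, a chemokine of activated microglia, had 186, 120 and 181 RPKM in vehicle samples and 228, 342 and 240 RPKM under 7aaRAE. Of 14 genes of NF-kB and its inhibitors, 5 were higher and 9 lower by value, and 2 were higher and 3 lower at an unadjusted p under 0.05. Nfkbia, an inhibitor of NF-kB, had 132, 116 and 120 RPKM against 150, 192 and 226 RPKM. Rela, an NF-kB subunit, had 47.9, 46.5 and 43.8 RPKM against 45.5, 46.6 and 44.6 RPKM. Hmox1, the heme oxygenase, was chosen after its values were seen, with 64.4, 47.0 and 70.2 RPKM against 250, 112 and 94.3 RPKM. The medians were 0.00 for heat shock chaperones, 0.03 for proteasome subunits, -0.04 for cytosolic ribosomal proteins, -0.10 for oxidative phosphorylation and -0.01 for lysosomal genes. Among those 5 lists, 0 to 4 members had an unadjusted p under 0.05 in either direction, where 7.72% of all genes did. Of 21 genes of glycolysis and hypoxia tested, 18 were higher, 2 of them at an unadjusted p under 0.05, with a median of 0.08. Of all genes, 49.1% and 3.42% were higher by these criteria. Without the samples numbered 2, 20 of 21 were higher, 8 of 21 at that p and 14 of 21 without overlap, with a median of 0.23, where 3.22% and 9.57% of all genes were higher by the last 2 criteria. Aldoa and Pkm, glycolytic enzymes and the most abundant members, had 147, 143 and 147 RPKM against 190, 120 and 161 RPKM, and 120, 123 and 139 RPKM against 159, 97.6 and 135 RPKM. 7aaRAE sample 2 was the lowest sample in both.

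The 2 peptides were compared at the same dose and time, which was 1 pair of compounds. No gene passed between 7aaRGD and 7aaRAE by limma (0 of 9668), 327 (3.38%) reached that level without adjustment, and 625 (6.46%) did not overlap. Il15ra had the smallest p, and its level under 7aaRGD was lower by 0.83 on the log2 scale, with a 95% interval of the difference from -1.06 to -0.60 and an adjusted p of 0.166. S100a4 was higher under 7aaRGD by 1.20, with adjusted p = 1.00 by limma, at 8.46, 6.60 and 14.3 RPKM. No gene passed between 7aaRGD and vehicle either (0 of 9668), with 365 genes (3.78%) at an unadjusted p under 0.05 and 10.8% of genes without overlap. Both contrasts with vehicle used the same 3 vehicle samples, so their values are given side by side only. The median of the immediate early genes was 0.43 for 7aaRAE and 0.52 for 7aaRGD, and that of MHC class II was -0.59 and -0.185. A threshold that was not reached does not show that the peptides act alike. The 95% interval of the difference in Ddit4 between the peptides ran from -2.83 to 0.30 on the log2 scale.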

How the data were processed

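RNA from sorted CD11b+ cells was sequenced. Reads had been cleaned in Trimmomatic, mapped by STAR on the mm10 assembly and assigned to genes in HTSeq by the authors (version 0.11.1 in the submitters' processing notes, reverse stranded). Their test, NOISeq, was not run here. The authors deposited normalized values that were read as RPKM plus a constant of 2, from the values themselves, because neither the constant nor the normalization is described in the sources used here. The constant was subtracted and values under 0 were set to 0. Depth is unknown, so no counting interval is given.

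Genes coding for proteins entered the test where the 9 fitted samples averaged 1 RPKM or more. The values, as log2(RPKM + 1), were fitted by limma (version 3.58.1, R version 4.3.3; trended empirical Bayes, Benjamini-Hochberg adjustment, threshold 0.05), after a test on simulated data. A fold change on this scale understates the change of low genes. Of 54513 rows, 98.88% matched the annotation. Samples pooled 2 animals, and the p-values measure the spread between these pools. Named genes were those past the threshold and, where fewer than 5 passed in a direction, the 10 largest differences with an unadjusted p under 0.05, no overlap and an average of 5 RPKM or more. In each list described, the 2 most abundant tested members were named. Some genes that these rules chose are not reported here. Members and lists were chosen with earlier results of these data known.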

Additional observations from a re-analysis of the deposited data

Results flagged for a closer look

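Jdp2 had opposite directions by value in the 2 tumor models and passed in neither. The 7aaRAE and vehicle samples did not overlap in either model, as for 16.5% of genes in U87-MG and 12.6% in GL261 gliomas. The log2 difference was 1.41 in U87-MG gliomas (adjusted p = 0.187 by limma). It was -0.433 in GL261 gliomas at day 21 (adjusted p = 0.718 by limma). Vehicle samples there had 18.9, 15.0 and 16.1 RPKM and 7aaRAE samples 14.8, 12.9 and 9.16 RPKM. The difference between the models was not tested, since their tables were normalized separately.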

How the results depend on the processing

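Il15ra passed under every alternative run except a filter at a mean of 5 RPKM, which removed it and left 0 calls by limma (500 genes at an unadjusted p under 0.05). The count of calls was 32 with only the 7aaRAE and vehicle samples fitted, 10 without 7aaRAE sample 2 and 7aaRGD sample 2 (chosen after seeing the data), 6 at an adjusted p under 0.1 and 1 to 1 leaving out each sample in turn. The count at an unadjusted p under 0.05 was 1261 with no filter, and 456 (without vehicle sample 2) to 1111 (without 7aaRAE sample 1) leaving out each sample, with 484 without 7aaRAE sample 2. Between the peptides 1 gene, H2-Ob, passed without the samples numbered 2. Of 880 list medians 18 moved by more than the spread. No paired analysis was possible because the columns carry no replicate numbers. With the place of a column as a term, which is not known to pair animals, Il15ra had an adjusted p of 0.0322 by limma and 838 genes had an unadjusted p under 0.05. Deviations from the group mean correlated between 7aaRGD and 7aaRAE at 0.611 for the first columns, 0.609 for the second and -0.17 for the third. Between vehicle and either peptide the correlations ran from -0.353 to -0.018. The comparison of the 2 peptides is given above from the fit without this term. Without counts, depth cannot be used to weigh low genes, and values near 0 depend on how the authors' processing treated them.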
